A study of Homo sapiens with 8 samples.

Results

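The calcium handling genes are 9 genes whose proteins store, release, take up or extrude calcium in heart muscle cells, and they were chosen by name: RYR2, ATP2A2, PLN, CASQ2, SLC8A1, TRDN, JPH2, HRC and SLN. They stand among 19962 protein-coding genes of the GENCODE 44 annotation of GRCh38. All peaks that overlap a gene or the 20 kb on either side of it were merged over 8 libraries, which gave 270 regions of 285909 in the genome. Human embryonic stem cells of the established line RUES2 were differentiated to cardiomyocytes, and open chromatin was mapped by ATAC-seq, in which the Tn5 transposase cuts accessible DNA, in 2 libraries per stage. The hESC libraries are from day 0, when the cells had spent the last day in E8 medium with the Wnt activator CHIR-99021. MES (mesoderm, day 2) followed CHIR-99021 in RPMI with albumin and ascorbic acid, and CP (cardiac progenitor, day 5) followed the Wnt inhibitor Xav-939, given from day 3. CM (cardiomyocyte, day 14) followed medium without inhibitors from day 5 and with B27 from day 7. All stages come from 1 line with no edited allele, and a bulk library cannot tell fewer cells with an open site from less opening per cell.

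In a heartbeat, calcium entering through the surface membrane opens the ryanodine receptor RYR2, which releases calcium from the sarcoplasmic reticulum. CASQ2 stores calcium there, TRDN ties CASQ2 to RYR2, HRC binds calcium in the same store, and JPH2 holds the store close to the surface membrane. The pump ATP2A2 (SERCA) returns calcium to the store and is restrained by the small membrane proteins PLN and SLN, while the exchanger SLC8A1 (NCX) carries calcium out of the cell. These genes are used in working heart muscle, and RYR2, SLC8A1 and TRDN are very long genes. Expression of the 9 genes was not measured in these libraries.

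The numbers of listed peaks in replicates 1 and 2 were 103189 and 156234 in hESC, 108425 and 156282 in MES, then 99889 and 120247 in CP, before 92891 and 55873 in CM. They give no read counts, but the lowest background recovered from each list, an average number of overlapping 200 bp fragments, lay between 2.54 (CM replicate 2) and 4.62 (hESC replicate 2). CM replicate 2 is thus both the shortest list and the shallowest library. A peak absent from a list did not pass the authors' q-value threshold in that library, which is not the same as closed DNA. At the 9 genes, 78 of the 156 regions listed in either hESC library were in both, and the same held for 86 of 163 in MES, 66 of 145 in CP and 37 of 78 in CM. Among promoters of stage markers, NANOG had a peak in both hESC and both MES libraries and in no later one. MYH6 had none in hESC and MES, and a fold of 4.18 in CP replicate 2 and of 4.28 and 5.19 in CM. Most other marker promoters were listed at all stages, including 5 of 8 of cardiomyocyte genes in both hESC libraries, so that a promoter peak marks few stages here. Of the 3 endothelial markers, KDR had a promoter peak in every library, with folds of 10.1 and 10.9 in CM, while CDH5 had none in any library and PECAM1 none in CM. The stromal ACTA2, COL1A1 and PDGFRB and the neural SOX1 and PAX6 had a promoter peak in every library, as the endoderm genes FOXA2 and TTR had in 7 of 8 and APOA2 in none, and the part of other cells in the results was not tested.

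Between the start and the end of differentiation, the calcium handling genes lost more regions than they gained, as did the genome, where 38602 regions were lost and 9003 gained, and the order turned in lists of equal length (19 gained and 16 lost). A region counts as gained where both CM libraries and neither hESC library had a peak, and as lost in the reverse case. Of the 270 regions, 15 (5.56%) were gained, against 3.15% of all regions, and 43 (15.9%) were lost, near the 13.5% of all regions. Another 18 (6.67%) had a peak in all 8 libraries, against 9.83%, and 101 (37.4%, against 40.7%) were listed in 1 library only. RYR2, SLC8A1 and TRDN held 38 of the 43 lost regions and 10 of the 15 gained ones, among 201 regions. The other 6 genes held 69 regions, of which 5 were gained and 5 lost.

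The lost count depends on the lengths of the lists. With every list cut to its 55777 strongest peaks, the 9 genes held 114 regions, of which 19 (16.7%) were gained, against 9.06% of all regions, and 16 (14.0%) were lost, against 12.0%. Of the 15 gained regions, 12 were also gained in the cut lists, and of the 43 lost regions 14 were also lost. Without hESC replicate 1 the lost count was 95, and without CM replicate 2 the gained count was 27. The folds in hESC of the 43 lost regions ran from 2.81 to 11.6, with a median of 5.27, and 18 regions exceeded 5 in both hESC libraries. In CM replicates 1 and 2, the weakest 5% of listed peaks had folds under 2.81 and 3.43.

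**Figure D1:**
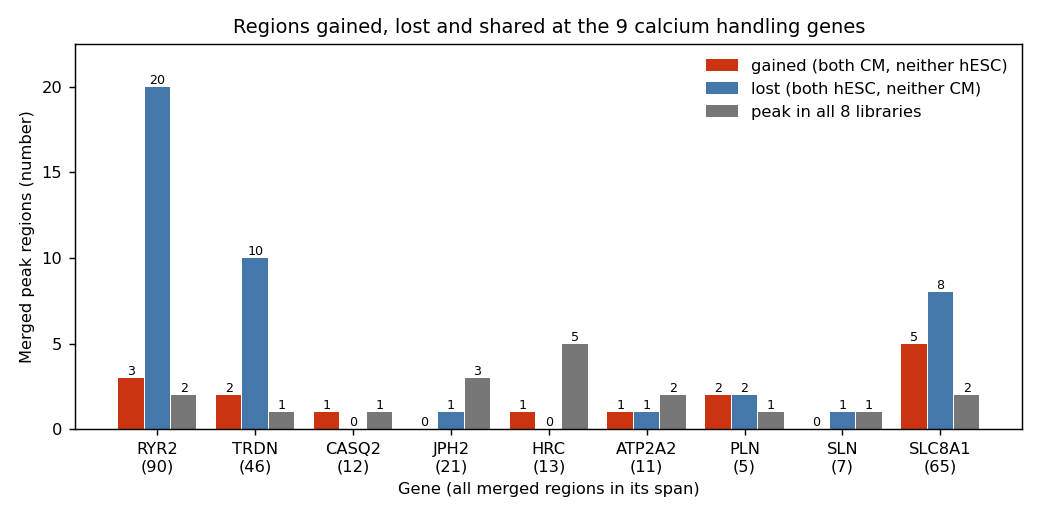
Number of merged peak regions (vertical axis) at each of the 9 genes that were gained, lost or listed in all 8 libraries, with all regions of the gene in brackets. RYR2 (20), TRDN (10) and SLC8A1 (8) hold most lost regions, SLC8A1 holds the most gained ones (5), and HRC the most with a peak in all libraries (5).

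The gained regions differed in when they were first listed. Of the 15, 5 (33.3%) had a peak in the CM libraries alone, the same share as of all gained regions. A CP library listed 8 (53.3%, against 62.7% of all gained regions), each of them in CP replicate 2. Both CP libraries listed 2 (13.3%, against 32.6%), and a MES library listed 5 (33.3%, against 29.8%). Introns held 12 of the 15 gained regions, and 3 lay upstream of PLN or HRC. Their folds in CM were 3.28 to 11.1, with a median of 5.37. Of the 43 lost regions, 28 (65.1%, against 46.4% of all lost regions) were listed in both MES libraries, 18 (41.9%, against 23.2%) in both CP libraries, whose lists are shorter, and 8 (18.6%, against 22.3%) in the hESC libraries alone.

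Motifs of heart transcription factors were searched in the 200 bp around the summit of every region, on both strands, where GATA stands for AGATAA, NKX for TNAAGTG, TEAD for GGAATG, T-box for AGGTGTG, AP-1 for TGANTCA and the octamer of OCT factors for ATGCAAAT. MEF2, CArG and CTCF sites were searched by their longer consensus, and the motifs can share bases. The summit is that of the region's peak with the highest fold in any library, which need not be a CM peak in a gained region. Of the 15 gained windows, 7 (46.7%) held GATA and 5 (33.3%) NKX, against 30.6% and 18.6% of the 9003 gained windows of the genome and 11.3% and 10.3% of all windows. Of the 43 lost windows 1 held GATA, and of the 18 windows listed in every library none did, against 7.29% and 4.21% in the genome. NKX was in 7 lost windows (16.3%, against 9.65%), in 1 of the 18, and in 43 of all 270 windows of the genes (15.9%), so that it was above the genome's share in lost windows too. The octamer was found in 3 lost windows (6.98%, against 4.03% of lost windows and 1.65% of all windows) and in no gained one. TEAD was about as frequent in gained windows (3 of 15, 20%, against 18.5%) as in lost ones (9 of 43, 20.9%, against 16.8%). It was in 4 of the 18 windows listed in every library (22.2%, against 10.3%). T-box, AP-1 and MEF2 were each in 1 gained window (6.67%, against 3.53%, 9.76% and 5.23%). CArG and CTCF were in no gained window, against 1.68% and 0.20%. These shares are descriptions of few windows, and a match is not a bound site.

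The windows of the strongest gained region with GATA away from a promoter in each of 5 genes are printed to show how close the matches lie. Each is 200 bp around the summit on the plus strand of GRCh38, with capitals marking every GATA, NKX and MEF2 match. None overlaps an annotated exon of a protein-coding gene. The summit is from MES replicate 1 at ATP2A2 and from CP replicate 2 at the other genes, whose peaks there had higher folds than those of CM.
RYR2, 104.2 kb into the gene, chr1:237146305-237146504: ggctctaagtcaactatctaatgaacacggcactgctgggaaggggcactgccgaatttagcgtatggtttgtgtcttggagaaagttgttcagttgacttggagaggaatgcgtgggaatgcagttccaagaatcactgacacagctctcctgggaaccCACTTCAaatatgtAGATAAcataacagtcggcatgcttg
ATP2A2, 7.9 kb into the gene, chr12:110289062-110289261: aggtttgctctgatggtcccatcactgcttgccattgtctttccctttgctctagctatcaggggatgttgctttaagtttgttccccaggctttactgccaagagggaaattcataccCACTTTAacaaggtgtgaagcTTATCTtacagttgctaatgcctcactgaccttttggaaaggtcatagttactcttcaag
PLN, 10.5 kb upstream, chr6:118537721-118537920: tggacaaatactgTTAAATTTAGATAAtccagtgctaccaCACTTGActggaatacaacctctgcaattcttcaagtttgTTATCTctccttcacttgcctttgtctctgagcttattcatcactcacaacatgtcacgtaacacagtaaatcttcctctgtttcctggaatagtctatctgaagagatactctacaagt
SLC8A1, 321.5 kb into the gene, chr2:40130395-40130594: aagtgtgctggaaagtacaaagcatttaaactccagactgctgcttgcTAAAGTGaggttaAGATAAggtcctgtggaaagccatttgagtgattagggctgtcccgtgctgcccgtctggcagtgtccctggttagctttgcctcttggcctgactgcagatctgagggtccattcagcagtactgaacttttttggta
TRDN, 330.5 kb into the gene, chr6:123306481-123306680: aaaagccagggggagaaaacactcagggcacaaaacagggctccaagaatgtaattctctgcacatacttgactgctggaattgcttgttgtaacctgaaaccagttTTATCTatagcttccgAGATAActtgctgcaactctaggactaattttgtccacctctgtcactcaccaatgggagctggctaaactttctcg
The PLN window held GATA at 2 places, NKX and MEF2, with the MEF2 match running into the GATA match beside it. The TRDN window held GATA at 2 places and no NKX, and the other windows held 1 GATA and 1 NKX match each.

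RYR2, the calcium release channel, lies at chr1:237042184-237833988 on the plus strand and held 90 regions. Its promoter region, chr1:237041773-237043413, was open from the start, with folds of 8.48 and 7.90 in hESC through 7.58 and 8.90 in MES and 8.26 and 10.7 in CP to 7.42 and 6.72 in CM. The CM and hESC libraries differed little, by 0.01 ± 0.14 (SE) on the log2 scale after centring each library on its median (limma adjusted p = 0.979). Of its regions, 3 were gained (3.33%, near the 3.15% of the genome) and 20 were lost (22.2%, against 13.5%). Of the lost ones, 1 lay beyond the end of the gene.

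The gained region of RYR2 with the highest significance, 342.3 kb from the transcription start site (TSS) at chr1:237384319-237384622, was listed in the CM libraries alone, with folds of 6.82 and 7.95. Another, 2.3 kb from the TSS at chr1:237044310-237044637, was also listed only in CM, with folds of 4.79 and 4.37. The last of the 3, whose window is printed above, had a fold of 8.46 in CP replicate 2 and of 5.22 and 5.94 in CM. All 3 are intronic, and all 3 were also gained in the lists of equal length.

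The lost region of RYR2 with the highest significance in hESC, 197.3 kb from the TSS at chr1:237239178-237239702, had folds of 8.12 and 9.84 in hESC, 6.91 and 7.61 in MES, then 4.95 and 3.98 in CP, and no peak in CM. Its window held an octamer and a T-box match. The CP folds lay under those of hESC and MES. Of the 20 lost regions, 8 were also lost in the lists of equal length.

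A region near the end of RYR2, 757.8 kb from the TSS at chr1:237799774-237800202 with its summit in an intron, had the highest fold of all RYR2 regions in each hESC, MES and CP library. Its folds were 15.7 and 17.4 in hESC, 15.0 and 17.2 in MES, then 11.1 and 17.5 in CP, before 6.28 and 6.78 in CM. Both CM libraries lay under all 6 others. The log2 change from hESC to CM was −1.12 ± 0.15 (SE; limma adjusted p = 0.00144), and it passed the threshold under all 13 alternatives, with changes of −1.34 to −0.95 and adjusted p of 0.00114 to 0.0173. From CP to CM it was −0.81 ± 0.15 (adjusted p = 0.0237). The latter p was 0.114 without CP replicate 2, 0.0781 without CM replicate 1, 0.160 without CM replicate 2, 0.0520 with the recovered pileup and 0.0522 in a fit of the 4 CP and CM libraries alone.

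**Figure D2:**
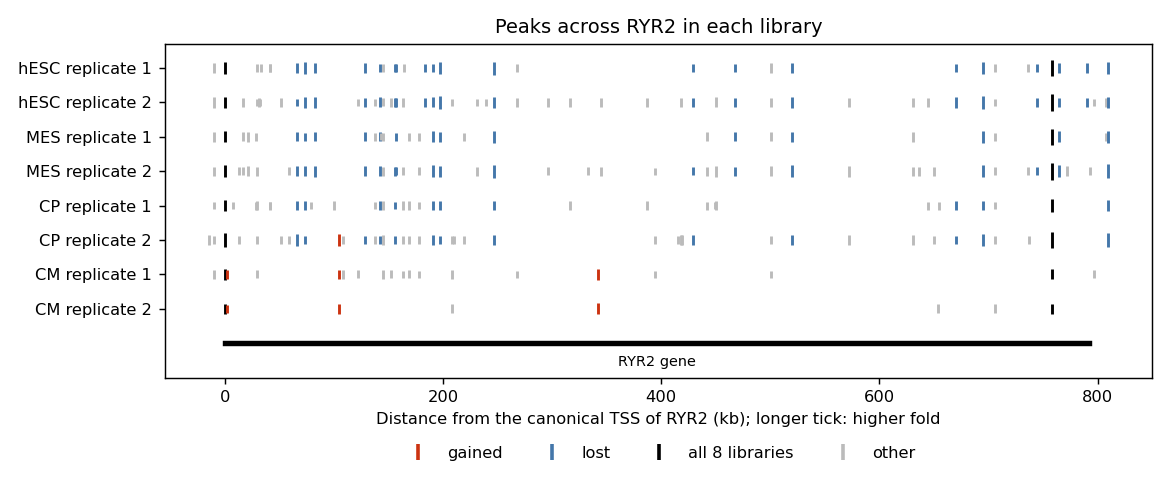
Peaks of each library (rows) along RYR2 by distance from its canonical TSS in kb, with longer ticks for higher folds and colours for regions gained, lost, listed in all 8 libraries or other. The blue ticks of the 20 lost regions stop at hESC, MES or CP, since the call requires that no CM library has a peak. The red ticks of the 3 gained regions stand at 2.3, 104.2 and 342.3 kb.

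TRDN, the triadin gene, lies at chr6:123216339-123637189 on the minus strand and held 46 regions. Of these, 2 were gained (4.35%, against 3.15% of all regions) and 10 lost (21.7%, against 13.5%). With lists of equal length TRDN held 16 regions, of which 3 were gained and 2 lost. The shares of all regions were then 9.06% and 12.0%, so that the higher lost share depends on the lengths of the lists. Its promoter region, chr6:123636666-123637454, had folds of 4.17 and 5.16 in hESC through 5.49 and 7.71 in MES and 5.45 and 8.46 in CP to 7.90 and 6.92 in CM. All later libraries lay above both hESC libraries. From hESC to CM it rose by 0.89 ± 0.18 on the log2 scale (SE; limma adjusted p = 0.00884), with adjusted p = 0.0741 without hESC replicate 1, 0.0506 without CM replicate 1 and 0.126 with no centring of the libraries.

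Another TSS of TRDN, 48.9 kb into the gene, was lost. The region over it, chr6:123587484-123588609, had folds of 5.31 and 6.91 in hESC, 6.85 and 6.40 in MES, then 7.26 and 5.58 in CP, and was not listed in CM. The strongest lost region lay 432.8 kb from the TSS, beyond the end of the gene, with folds of 9.92 and 9.73 in hESC, 5.43 and 8.70 in MES, then 4.91 and 3.95 in CP, and none in CM.

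The gained regions of TRDN are both intronic and both hold GATA. That at 330.5 kb, chr6:123306206-123306754, had a fold of 11.3 in CP replicate 2 and of 6.82 and 8.76 in CM. That at 106.9 kb, chr6:123529902-123530163, had folds of 5.11 in the same CP library and 4.31 and 5.65 in CM. Neither was listed in CP replicate 1 or in any earlier library.

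CASQ2, the calcium store protein, lies at chr1:115700021-115768884 on the minus strand. No library had a peak within 1 kb of its TSS. The nearest region listed in all 8 libraries lay 3.2 kb upstream at chr1:115771559-115772273, with folds of 9.35 and 11.6 in hESC, 9.27 and 11.6 in MES, then 7.18 and 12.8 in CP, before 7.47 and 9.28 in CM. The stages overlap there, and the log2 change from hESC to CM was −0.11 ± 0.18 (SE; limma adjusted p = 0.714). Its only gained region, intronic at 40.7 kb and chr1:115727743-115728286, was weak, with folds of 5.47 in MES replicate 2, 4.18 in CP replicate 2 and 3.29 and 4.21 in CM, and it was not gained in the lists of equal length. None of its 12 regions was lost.

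JPH2, the junction protein, lies at chr20:44106590-44187188 on the minus strand and held 21 regions. None was gained, where 3.15% of all regions were, and 1 was lost (4.76%, against 13.5%). The lost one, 70.3 kb from the TSS, had folds of 4.56 and 3.29 in hESC, 4.24 and 4.69 in MES, then 3.64 and 4.87 in CP, and none in CM. With lists of equal length JPH2 held 8 regions, of which 3 counted as gained, against 9.06% of all regions. All 3 of its regions listed in every library rose from hESC to CM. The region 6.1 kb into the gene, chr20:44180801-44181281, had folds of 3.73 and 3.98 in hESC through 3.46 and 6.80 in MES and 5.91 and 10.7 in CP to 7.02 and 8.69 in CM. Both CM libraries lay above both hESC libraries, and the log2 change was 1.24 ± 0.24 (SE; limma adjusted p = 0.0078).

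The region of JPH2 at 49.7 kb, chr20:44137069-44137842, had folds of 5.45 and 7.79 in hESC, 7.29 and 8.99 in MES, then 8.23 and 10.7 in CP, before 9.72 and 10.4 in CM. It rose by 0.85 ± 0.17 (limma adjusted p = 0.00831, and 0.0861 without hESC replicate 1). The promoter region, chr20:44186642-44187797, had folds of 4.50 and 3.93 in hESC through 4.49 and 5.10 in MES and 5.60 and 7.14 in CP to 4.69 and 5.99 in CM. The promoter rose by 0.55 ± 0.15 (adjusted p = 0.0349). This change, the smallest of the 5 rises, kept its call under 6 of 13 alternatives, with adjusted p of 0.0722 and 0.237 without hESC replicates 1 and 2, 0.0591 and 0.0572 without MES replicates 1 and 2, and 0.122 without CM replicate 2. A further promoter region 0.7 kb upstream was listed in MES replicate 2 alone, with a fold of 3.70.

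HRC, the histidine rich calcium binding protein, is a gene of 4.20 kb at chr19:49151198-49155396 on the minus strand, in a stretch dense with genes. Its own promoter region, chr19:49155336-49155657, was gained, with folds of 2.95 in MES replicate 2 and 3.28 and 3.78 in CM. A region 0.6 kb upstream had folds of 2.82 in MES replicate 2 and 2.52 in CM replicate 1. These are low folds for a listed peak, though the promoter had a mean −log10 q of 14.0 over the CM libraries. A region in an exon of HRC, 3.5 kb from the TSS at chr19:49151619-49152230, went the other way. Its folds were 4.21 and 3.86 in hESC and 2.35 in CM replicate 1, with no peak in CM replicate 2. With a promoter window of 2 kb the promoter of HRC did not count as gained.

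Of the 13 regions at HRC, 5 were listed in all libraries, and each of these had its summit inside a neighbouring gene, PPFIA3 or TRPM4. Promoters of PPFIA3 covered 2 of them and that of TRPM4, a calcium-activated cation channel gene, covered another. The region that changed most, 4.9 kb beyond the TSS of HRC and within PPFIA3 at chr19:49150167-49150833, had folds of 2.52 and 2.30 in hESC, 2.74 and 3.12 in MES, then 3.08 and 3.19 in CP, before 2.98 and 3.63 in CM. It rose by 0.67 ± 0.15 (SE; limma adjusted p = 0.0176), with adjusted p of 0.0566 and 0.135 without hESC replicates 1 and 2, 0.0712 without CM replicate 2 and 0.0535 with quantile normalization. The region at the TSS of TRPM4 did not differ between hESC and CM beyond its error, at 0.01 ± 0.16 (adjusted p = 0.978).

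ATP2A2, the calcium pump of the store, lies at chr12:110280756-110351093 on the plus strand and held 11 regions. Its promoter region, chr12:110280517-110282288, had folds of 6.05 and 6.75 in hESC through 6.42 and 6.97 in MES and 6.77 and 7.55 in CP to 7.22 and 6.63 in CM. The stages overlap, and the log2 change from hESC to CM was 0.33 ± 0.15 (SE; limma adjusted p = 0.139). An intronic region 7.9 kb into the gene, chr12:110288915-110289327, was already listed in MES. Its folds were 8.82 and 7.94 in MES, 5.81 in CP replicate 2, and 4.13 and 4.52 in CM, with no peak in hESC or in CP replicate 1. Both MES libraries lay above the CM libraries there, and the region was not gained in the lists of equal length. The only lost region, 89.7 kb from the TSS, was weak, with folds of 2.90 and 2.81 in hESC and 3.13 in MES replicate 1.

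PLN, the inhibitor of the pump, lies at chr6:118548296-118561716 on the plus strand, inside the longer gene CEP85L, and had 5 regions. Its promoter region, chr6:118548143-118548394, was listed in the CM libraries alone, with folds of 6.82 and 5.65. The region 10.5 kb upstream, chr6:118537647-118537949, whose window with GATA, NKX and MEF2 is printed above, had a fold of 7.20 in CP replicate 2 and of 5.92 and 5.37 in CM. Both were also gained in the lists of equal length, and both lie within CEP85L, so that the peaks alone do not assign them to PLN.

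The lost regions of PLN were a pair at 3.0 and 17.3 kb. The stronger, chr6:118565383-118565807, had folds of 7.02 and 5.52 in hESC, 5.43 and 7.29 in MES, then 4.88 in CP replicate 2. Neither of the pair was lost in the lists of equal length. The last region, 32.6 kb from the TSS, was listed throughout, with a log2 change of 0.03 ± 0.16 (limma adjusted p = 0.911).

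Of the 9 genes, PLN and HRC gained their promoter in the sense that no TSS of the gene had a peak within 1 kb in hESC and some TSS had one in both CM libraries. This compares with 0.413% of the 19618 protein-coding genes counted. RYR2, ATP2A2, SLC8A1, TRDN and JPH2 had a promoter peak in all libraries and CASQ2 in none. The 200 bases before the TSS of PLN, chr6:118548096-118548295 on the plus strand, are printed because this promoter was listed in CM only.
PLN: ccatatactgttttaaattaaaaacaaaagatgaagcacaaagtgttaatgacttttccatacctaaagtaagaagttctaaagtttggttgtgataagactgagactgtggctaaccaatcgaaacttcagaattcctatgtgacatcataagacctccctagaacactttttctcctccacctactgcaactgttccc
They hold no GATA, NKX or MEF2 match, which 4.75%, 5.19% and 1.42% of 19625 promoters of the same length hold. GATA was searched as AGATAA alone, so that other forms of the site, such as the tgataa in these bases, were not counted.

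SLN, the sarcolipin gene, lies at chr11:107707378-107719693 on the minus strand and gained no region among its 7. The region within 1 kb of its upstream TSSs, on their gene side at chr11:107719013-107719484, had folds of 5.16 in hESC replicate 2 and 5.19 and 5.47 in MES. Its folds were 3.72 and 3.88 in CP and 3.30 in CM replicate 1. A region on the other side of the same starts, 8.6 kb upstream of the canonical TSS, was listed in MES replicate 2 (4.05) and CP replicate 2 (6.62). No peak of CM replicate 2 lay at a promoter of SLN, and no library had a peak within 1 kb of its canonical TSS. Its lost region, 4.0 kb from the canonical TSS in a UTR at chr11:107707724-107708410, had folds of 4.11 and 5.34 in hESC and 5.76 and 7.59 in MES, and none in CP or CM. The region listed in all libraries, 22.3 kb from the TSS, changed by −0.14 ± 0.22 (limma adjusted p = 0.688).

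SLC8A1, the sodium-calcium exchanger, lies at chr2:40097270-40611053 on the minus strand and held 65 regions. Its 5 gained ones were the most in number, while the gained share was higher at PLN (2 of 5 regions), ATP2A2 (1 of 11) and CASQ2 (1 of 12). At SLC8A1 7.69% of regions were gained, against 3.15% of all regions, and 8 (12.3%) were lost, near the 13.5% of all regions. A start 60.3 kb upstream of the canonical TSS, with its region at chr2:40512085-40512744, was not listed in hESC or in MES replicate 1, and had folds of 4.25 in MES replicate 2, 4.27 and 9.05 in CP, and 11.1 and 10.3 in CM. Both CM libraries lay above all others, and this was the gained region with the highest significance at the 9 genes. The canonical promoter, chr2:40451892-40452600, had folds of 5.85 and 5.16 in hESC, 5.16 and 5.07 in MES, then 6.19 and 6.33 in CP, before 3.50 and 4.00 in CM. The CM values were the lowest, but the log2 change from hESC was −0.33 ± 0.16 (SE; limma adjusted p = 0.168).

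Of the other starts of SLC8A1, that at 0.7 kb was listed in all libraries but CM replicate 2, with folds of 2.99 to 4.13. That farthest upstream was listed in MES alone, with 4.30 and 4.25, and a region 1.5 kb upstream in MES replicate 2 alone, with 2.42. The starts therefore differ in the stages at which they were listed. The 200 bases before that start 60.3 kb upstream, chr2:40512437-40512636, are given on the minus strand, which is that of the gene, with GATA and NKX matches in capitals.
SLC8A1: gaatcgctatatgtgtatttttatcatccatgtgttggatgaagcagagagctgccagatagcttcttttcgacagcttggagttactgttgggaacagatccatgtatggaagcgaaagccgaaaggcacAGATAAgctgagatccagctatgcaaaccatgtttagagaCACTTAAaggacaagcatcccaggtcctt

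Within SLC8A1, the strongest gained region besides the promoter lay 321.5 kb from the canonical TSS at chr2:40130270-40130898. Its folds were 6.20 and 12.0 in CP, then 7.52 and 8.58 in CM. It had no peak in hESC or MES, and its window with GATA and NKX is printed above. It was, with the promoter 60.3 kb upstream, a gained region listed in both CP libraries. The lost region with the highest significance, at −102.8 kb from the canonical TSS (upstream) and chr2:40554712-40555050, had folds of 10.5 and 10.6 in hESC, 9.27 and 9.77 in MES, then 6.79 and 9.68 in CP, and none in CM. The region listed in all libraries that changed most, at 207.3 kb, had folds of 8.70 and 10.0 in hESC through 11.0 and 10.5 in MES and 7.79 and 13.4 in CP to 5.54 and 5.40 in CM. Its CM values lay under all others, with a log2 change of −0.55 ± 0.17 that missed the threshold (limma adjusted p = 0.0508).

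**Figure D3:**
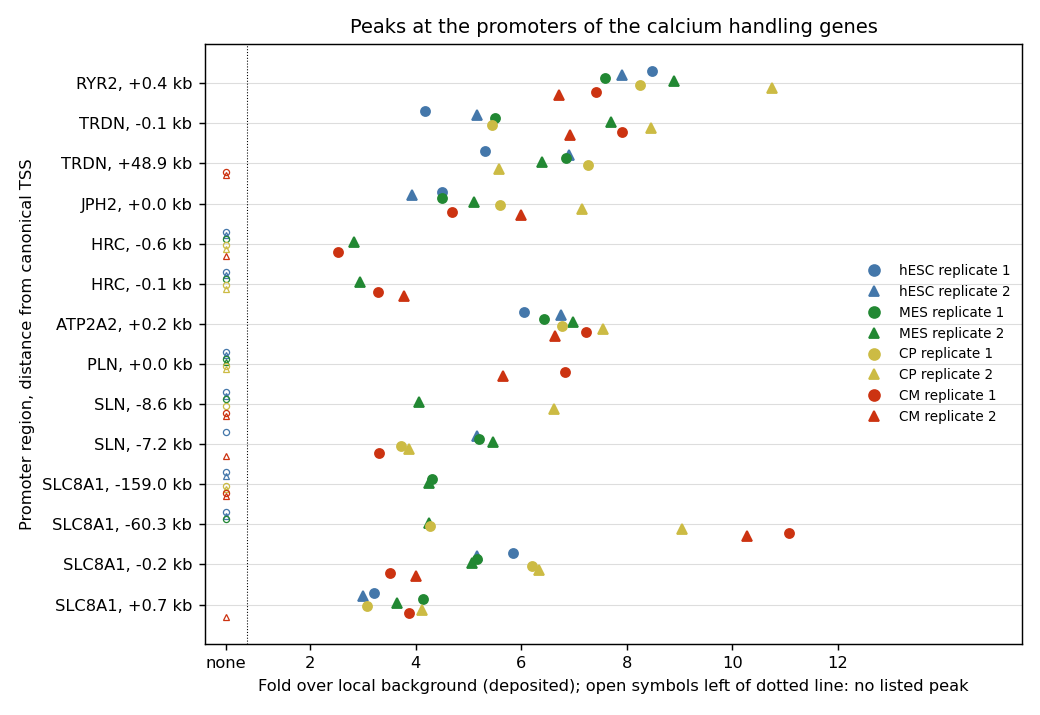
Fold over local background (horizontal axis) of each library at the promoter regions listed in at least 2 libraries, with open symbols at the left for no listed peak. The SLC8A1 start 60.3 kb upstream reaches 11.1 and 10.3 in CM, the PLN promoter is listed in CM only, and the RYR2 and ATP2A2 promoters overlap between stages.

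Over the 18 regions with a peak in all libraries, 5 rose from hESC to CM, against 6.12% of 28115 such regions in the genome, and 1 fell, against 5.75%. Their median log2 change was 0.22, and that of all such regions 0.10. With no centring of the libraries, that median over all regions moves to −0.12 and none of the 5 rises passes the threshold, while the fall of the RYR2 region does. Rises were 51.5% of all called regions, 7.54% with no centring and 40.6% with quantile normalization. The changes at JPH2, TRDN and HRC are thus changes relative to the other regions of the same library. From hESC to MES and from MES to CP none of the 18 passed the limma test, against 0.822% and 0.377%, and 0 and 2 had an unadjusted p under 0.05. From CP to CM none rose, against 0.317%, and the RYR2 region alone fell, against 1.23%.

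Counting all peaks in each gene and its flanks, per 100000 listed peaks of the library, RYR2 and TRDN fell from hESC to CM and CASQ2 rose. RYR2 had 32.0 and 33.3 peaks per 100000 in hESC, 28.6 and 28.2 in MES, then 33.1 and 34.1 in CP, and 20.5 and 16.1 in CM. TRDN had 13.6 and 16.7 in hESC, 15.7 and 19.8 in MES, then 14.0 and 16.6 in CP, before 6.47 and 7.17 in CM. In both genes the CM libraries lay under all others. The log2 changes from hESC to CM, with 1 peak added to each count, were −0.77 ± 0.19 for RYR2 (SE; limma adjusted p = 0.003) and −0.95 ± 0.25 for TRDN (adjusted p = 0.00751), and they came between CP and CM, at −0.81 ± 0.19 (adjusted p = 0.0104) and −0.98 ± 0.25 (adjusted p = 0.0314).

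CASQ2 had 2.91 and 4.48 peaks per 100000 in hESC, 4.61 and 5.12 in MES, then 4.01 and 4.99 in CP, and 7.55 and 7.17 in CM. Its log2 change was 0.98 ± 0.33 (limma adjusted p = 0.0445), from raw counts of 3 and 7 peaks in hESC and 7 and 4 in CM. The other genes did not pass, with log2 changes of 0.58 for ATP2A2, 0.82 for PLN, −0.15 for SLC8A1, 0.47 for JPH2, 0.50 for HRC and 0.11 for SLN and adjusted p of 0.164 to 0.874. Of the 17086 genes tested, 6.82% rose and 1.63% fell in this contrast. Between hESC and MES, and between MES and CP, none of the 9 passed, against 0.0293% and 0.00585%, and none had an unadjusted p under 0.05. Between CP and CM none rose, against 0.193%, and 2 fell, against 0.24%.

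These counts lean on the scaling to list length. The median gene rose by 0.37, and 80.7% of called genes were rises. Without scaling the median was −0.45 and no gene was called, and with lists of equal length 57.6% were rises. RYR2 kept a negative change under both (−1.59, adjusted p = 0.134, and −0.76, adjusted p = 0.0932), whereas TRDN went to −1.77 (adjusted p = 0.117) and to 0.16 (adjusted p = 0.814), and CASQ2 to 0.16 (adjusted p = 0.827) and 1.45 (adjusted p = 0.0537). Leaving out hESC replicate 2 gave adjusted p of 0.0928 for RYR2, 0.202 for TRDN and 0.142 for CASQ2, and leaving out CM replicate 2 gave 0.0522 for RYR2 and 0.174 for CASQ2. CASQ2 also missed the threshold without hESC replicate 1 (0.206) and whichever MES or CP library was left out (0.0615 to 0.0656). The fall from CP to CM lost its call without CP replicates 1 or 2 for RYR2 (0.145 and 0.177) and for TRDN (0.202 and 0.399), and without CM replicate 2 for RYR2 (0.104). For TRDN it was 0.0514 and 0.0598 without hESC replicates 1 and 2, and 0.0689 and 0.0813 without MES replicates 1 and 2.

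Other genes of calcium cycling were counted in the same way. Of 9 paralogues that serve skeletal muscle, nerve or other cells (RYR1, RYR3, ATP2A1, ATP2A3, CASQ1, SLC8A2, SLC8A3, JPH3 and JPH4), none passed the test from hESC to CM in either direction, with changes of −0.25 to 0.82 and a median of 0.01, against 0.37 over all genes. Of 20 partners and regulators, 2 rose and none fell, where 6.82% and 1.63% of all genes did, and the median of 0.24 was under that of all genes. TMEM38A, a potassium channel of the store, had 0.97 and 1.28 peaks per 100000 in hESC, 1.85 and 1.28 in MES, then 3.01 and 1.66 in CP, and 4.31 and 5.38 in CM, and rose by 1.69 ± 0.43 (SE; limma adjusted p = 0.00499). CACNB2, a subunit of the L-type calcium channel, had 13.6 and 16.7 in hESC and 20.5 and 28.7 in CM, and rose by 0.69 ± 0.23 (adjusted p = 0.0374). CACNA1C, the pore of that channel, changed by 0.24 ± 0.16 (adjusted p = 0.311).

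The promoters of these genes were mostly listed throughout. CASQ1, like CASQ2, had no promoter peak in any library. The promoter of JPH4 was lost, with folds of 3.22 and 3.47 in hESC and none in CM. That of STRIT1, whose small protein counters the inhibition of the pump, was also lost, with folds of 3.87 and 4.81 in hESC, 4.05 in MES replicate 2 and no peak in any other library.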

How the data were processed

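ATAC-seq peaks were analysed for 2 replicate libraries at each of 4 stages of RUES2 differentiation, grouped by the stage given in the labels. The authors mapped reads to hg38 with BWA-MEM (BWA 0.7.13), filtered them for primary alignments (mapping quality over 30), marked and dropped duplicates by Picard, and used MACS2 2.1.0 on each library at a q-value of 0.01, shifting reads by 100 bp and extending them to 200 bp. bedtools 2.26.0 is also named in the submitters' processing notes. The deposited lists give each peak's fold over the local background, a linear ratio, its −log10 p-value and its −log10 q-value, with no read counts. Pileup and background were recovered from the fold and the −log10 p (100% of peaks within 0.001).

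Peaks on chromosomes 1 to 22 and X were merged over the lists on an overlap of at least 1 bp, and a region took its highest fold in each library. Gene spans, with 20 kb on either side, and TSSs of protein-coding transcripts (1 kb on either side for promoters) came from GENCODE 44 on GRCh38. Two-sided moderated tests were made with limma 3.58.1 in R 4.3.3, with 1 mean per stage and Benjamini-Hochberg adjustment over all regions or genes, at a threshold of 0.05. They were made on median-centred log2 folds at the 28115 regions listed in all libraries, and on log2 peaks per gene (1 peak added, per 100000 listed peaks) at the 17086 genes with a mean of at least 2 peaks. Gained and lost are counts with no test, since 0.333 is the smallest p that an exact comparison of 2 with 2 libraries allows. P-values measure only the spread between 2 libraries per stage. Motifs were searched and figures drawn in Python 3.11.15 (matplotlib 3.10.9, scipy 1.17.1, pandas 2.3.3, numpy 2.4.6). The fits and the recovery of the pileup were tested on simulated data. The 9 genes and the gene, marker and motif lists were chosen with earlier results of these data known. The regions named are, per gene, every region at a TSS, the 2 gained and the 1 lost region of highest mean −log10 q, and the region listed in all libraries that changed most, with some others named after their values were seen.

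The alternatives were lists cut to equal length (each library's 55777 most significant peaks), a −log10 q of at least 5, flanks of 5 and 50 kb, peaks up to 100 bp apart merged, a peak in either library of a stage, promoter windows of 500 bp and 2 kb, other scalings and pseudocounts, other minimum numbers of peaks, the recovered pileup, regions listed in the 4 libraries compared, a replicate block, and each library left out in turn.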

Additional observations from a re-analysis of the deposited data

How the results depend on the processing

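The gained count of 15 kept within 1.5 times under all alternatives but a peak in either library of the stage (31) and the leave-one-out range of 15 to 27, and its upper end came without CM replicate 2. The lost count of 43 moved to 16 with lists of equal length and 109 with a peak in either library, and ran from 43 to 95 with a library left out, with 95 without hESC replicate 1. The 18 regions listed in all libraries were 11 with lists of equal length and 18 to 23 with a library left out. The 2 gained promoters were 2 whichever library was left out, and 1 (PLN) with a window of 2 kb.

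At the regions listed in all libraries, the rises from hESC to CM (5) were 0 with no median centring and 1 to 6 with a library left out, and the falls (1) were 3 with the recovered pileup, 2 in the fit of 4 libraries and 1 to 2 with a library left out. The calls from hESC to MES (0) were 1 in the fit of 4 libraries, those from MES to CP (0) were 2 with the recovered pileup and 1 in the fit of 4 libraries, and both stayed at 0 to 0 with a library left out. Those from CP to CM (1) were 2 with no median centring and 0 to 2 with a library left out.

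For peaks per gene, the rises from hESC to CM (1) were 0 with no scaling and with flanks of 5 and 50 kb, and 0 to 2 with a library left out. The falls (2) were 0 with no scaling and with lists of equal length, 1 with a flank of 5 kb, and 0 to 2 with a library left out. The falls from CP to CM (2) were 0 with no scaling, lists of equal length and a −log10 q of at least 5, 1 with a pseudocount of 2 and flanks of 5 and 50 kb, and 0 to 2 with a library left out. Where a stage rests on 1 library, that library is assumed to vary like the others. JPH2 alone rose with lists of equal length (1.70, adjusted p = 0.0179).

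Replicate numbers were not treated as pairs. The correlations of same-numbered deviations ran from −0.12 to 0.19 over regions and from −0.19 to 0.19 over genes, and only 3 and 2 of 6 exceeded 0.1. Over regions these 3 were the pairs among hESC, MES and CP (0.13, 0.13 and 0.19). Such low correlations cannot decide whether the libraries were paired. With a replicate block the rise of CASQ2 had an adjusted p of 0.0525, which leaves 0 rises per gene, and the block changed no other call of the 9 genes.

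Changes that missed the test also changed sign. At listed regions these were, with no median centring, the RYR2 promoter (−0.21), ATP2A2 11.2 kb upstream (−0.093), PLN at 32.6 kb (−0.19) and the TRPM4 start at HRC (−0.21). With the recovered pileup they were ATP2A2 11.2 kb upstream (−0.10), CASQ2 3.2 kb upstream (0.13) and SLN at 22.3 kb (0.071), and with quantile normalization the RYR2 promoter (−0.016). With a library left out, the change ran from −0.090 to 0.23 at the RYR2 promoter, from −0.14 to 0.34 for PLN at 32.6 kb, from −0.26 to 0.030 for CASQ2 3.2 kb upstream, from −0.040 to 0.19 at the TRPM4 start and from −0.49 to 0.20 for SLN at 22.3 kb. For peaks per gene, no scaling gave −0.24 for ATP2A2, −0.35 for JPH2, −0.32 for HRC and −0.71 for SLN, SLN went to −0.035 with a pseudocount of 0.5 and to −0.0070 with a flank of 50 kb, and lists of equal length gave 0.16 for TRDN. With a library left out, SLN ran from −0.19 to 0.41 and SLC8A1 from −0.40 to 0.092. The causes were not tested.

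Over all genes, 1165 rose and 278 fell from hESC to CM. These were 1304 and 139 with a pseudocount of 2, 1019 and 444 with 0.5, 0 and 0 with no scaling, 2117 and 344 with a −log10 q of at least 5, and 381 and 280 with lists of equal length, and 736 and 237 of the genes with at least 5 peaks. With a library left out they ran from 161 and 67 (without hESC replicate 2) to 3058 and 474 (without CM replicate 1). Over all regions, 1720 rose and 1618 fell, against 141 and 1728 with no centring, 1132 and 1659 with quantile normalization, 2907 and 1923 with the recovered pileup, and 431 and 427 without hESC replicate 2.

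The lists hold no read counts, and CM replicate 2, with the lowest background (2.54), limits which regions count as gained or lost.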
